A study of Mus musculus with 24 samples.

Results

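The genes of the cytosolic ribosome's own proteins were followed in whole tibialis anterior muscle, a fast muscle of the lower leg, after deletion of Hira. Members were the array rows whose annotated symbol was Rpl, Rps or Rplp with a number and at most a short suffix (x, l or a). The S6 kinases and pseudogenes were left out. This gave 38 genes on 47 rows, of 17742 genes on 26423 rows in all, with 25 genes of the large subunit and 13 of the small subunit. Another 46 of the 84 protein-coding mouse genes with such a symbol were not analysed here, among them Rplp1, Rplp2, Rpl11 and Rps6.

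Mice of both genotypes were compared at the age of 6 months, both on a mixed background (C57BL6/J;129S1/SvImJ). The 4 Hira knockout animals were Myf6 cre/+; Hira flox/-, and the 4 control animals were Myf6 cre/+; Hira flox/+. Both groups thus carried the Cre recombinase at the Myf6 locus, which acts in skeletal muscle fibres, and a floxed allele. Control animals also had a wild-type Hira allele in every cell, while knockout animals had a null allele in its place, in cells other than fibres too. RNA of each animal was hybridised on 3 arrays, which makes 24 arrays. HIRA deposits the histone variant H3.3 into chromatin independently of DNA replication, and the series asked what its loss does to the transcripts of mature muscle.

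A cytosolic ribosome joins a large subunit, which forms peptide bonds, to a small subunit, which reads the messenger RNA. Each subunit holds ribosomal RNA and a fixed set of proteins, most of them present in a single copy, so their genes are known for being expressed together. Their messages begin with a short run of pyrimidines, the 5' terminal oligopyrimidine (TOP) tract, through which mTOR signalling and the protein LARP1 govern their translation. In skeletal muscle, ribosome content is known as a limit on protein synthesis and growth, and a muscle paralogue, Rpl3l, takes the place of Rpl3.

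The values were deposited as linear array intensities with the same median of 626 on every array, and the number of arrays and animals limits their precision. The tissue was checked on 9 of 14 listed genes of muscle fibres. As group means they read 181957 to 379106 in Hira knockout muscle and 203180 to 412297 in control muscle. Of them, 0 passed the test used for all genes (limma, adjusted, and 0 at an unadjusted p under 0.05). The Hira probe differed by -0.15 on the log2 scale (95% interval -0.51 to 0.22; limma, adjusted p = 0.623). No source used here places this probe relative to the deleted exons, and the value therefore checks no genotype. Over all genes tested the median difference, Hira knockout minus control, was -0.07 (log2), and 40.3% of genes were above 0. Nothing in the sources used here says whether the animals of a group were littermates.

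Of the 38 ribosomal protein genes 6 rose in Hira knockout muscle and 0 fell (limma on the 8 animal means, adjusted p under 0.05 over all genes tested). The 6 were Rpl35a, Rpl5, Rplp0, Rpl22 and Rpl19 of the large subunit and Rps3 of the small subunit, with increases of up to 1.97-fold. They were 15.8% of the members, against 4.28% of all genes called higher. No member was called lower, against 5.01% of all genes. At an unadjusted p under 0.05, 11 members were higher and 1, Rpl37, was lower (limma), against 9.44% and 14.6% of all genes. The median difference of the 38 genes was 0.14 (log2), and 29 of them, 76.3%, were above 0. In RNA of a whole muscle, fewer cells of a type and less RNA per cell cannot be told apart.

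**Figure D1:**
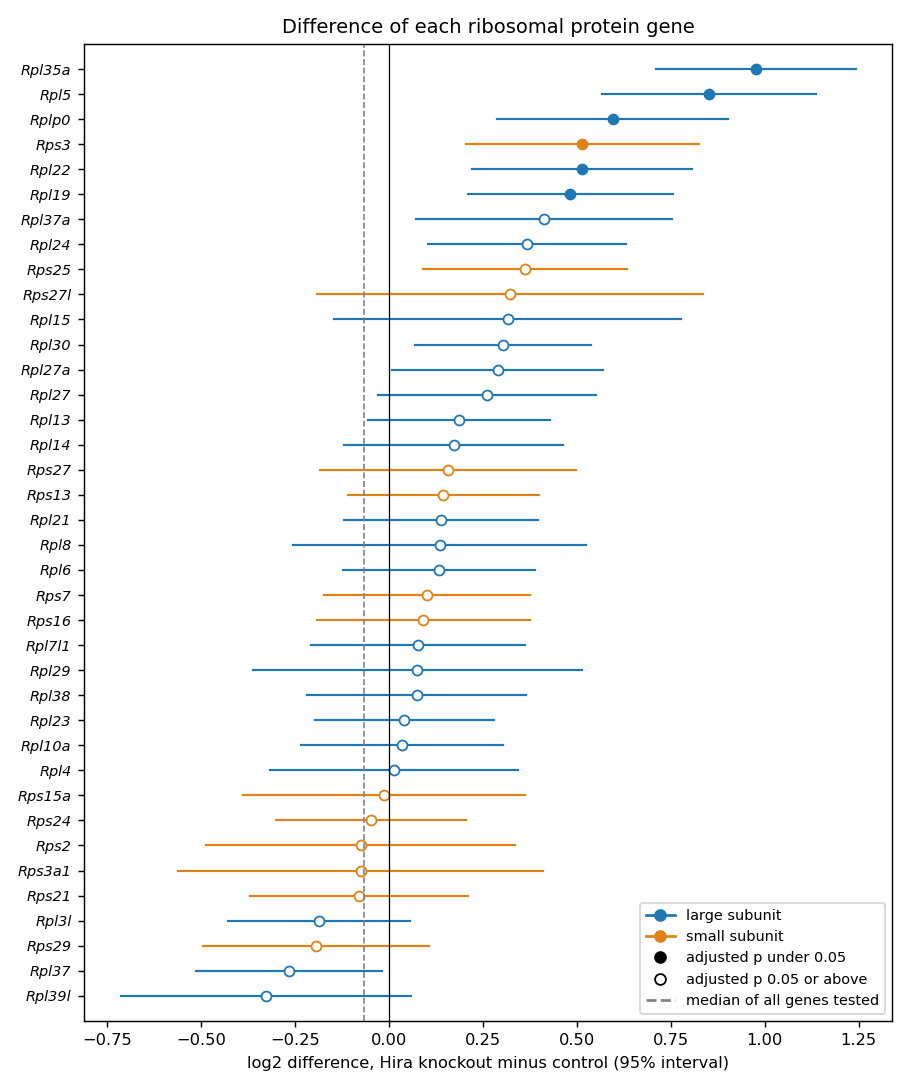
Each point is the log2 difference, Hira knockout minus control, of 1 ribosomal protein gene with its 95% interval from limma (n = 4 animals per group), coloured by subunit, and filled where the adjusted p was under 0.05. The dashed line marks the median of all genes tested, -0.07, and 29 of the 38 points lie above 0. Rps3a1 and Rps29 are drawn from probes at the low end of the scale.

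Rpl35a, a large subunit protein whose human gene is mutated in Diamond-Blackfan anaemia, showed the largest difference among the members. Its intensity was 1425, 1570, 1314 and 1392 in the 4 Hira knockout animals, against 613, 760, 741 and 788 in the 4 control animals. The lowest Hira knockout animal lay far above the highest control animal. The increase was 1.97-fold, a log2 difference of 0.98 ± 0.12 (SE, n = 4 animals per group; limma, adjusted p = 0.000612). Rpl35a lies on chromosome 16, as Hira does, and so does the member Rpl39l. The groups differed in the Hira allele on a mixed background. Whether strain differences linked to that allele have a part in the values of these genes was not tested.

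Rpl5 binds 5S ribosomal RNA together with Rpl11, and outside the ribosome this pair restrains Mdm2, the ubiquitin ligase of p53. Rpl5 read 4768, 5867, 4896 and 6100 in Hira knockout animals, against 3375, 3081, 2713 and 2787 in control animals. The groups did not overlap, and Hira knockout animals 2 and 4 lay above the other 2 of their group. The difference was 0.85 ± 0.13 (log2, SE), or 1.81-fold (limma, adjusted p = 0.0024).

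Rplp0 is the base of the stalk that recruits and activates the elongation factors on the large subunit. It read 21084, 27761, 20650 and 24536 in Hira knockout animals, against 14583, 18404, 15471 and 13702 in control animals. The groups did not overlap, but Hira knockout animal 3 and control animal 2 lay close to each other. The difference was 0.60 ± 0.14 (log2, SE), or 1.51-fold (limma, adjusted p = 0.0227).

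Rpl22 is an RNA-binding protein on the outer face of the large subunit, and Rpl19 takes part in a bridge between the subunits. Rpl22 read 9595, 11039, 10348 and 11793 in Hira knockout animals, against 7985, 8717, 6206 and 7176 in control animals. Its difference was 0.52 ± 0.13 (log2, SE; limma, adjusted p = 0.0347). The lowest Hira knockout animal again lay above the highest control animal. Rpl19 read 1141, 1257, 923 and 1203 in Hira knockout animals, against 746, 834, 829 and 808 in control animals. Its difference was 0.48 ± 0.12 (log2, SE; limma, adjusted p = 0.0343). Hira knockout animal 3 was the closest to the control animals for Rpl19, and the control animals lay within a narrow range.

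Rps3, which sits where messenger RNA enters the small subunit, was the member of that subunit that rose. It read 1055, 1522, 1039 and 1143 in Hira knockout animals, against 832, 907, 769 and 787 in control animals. Animal 2 of the Hira knockout group was well above the other 3, and the remaining animals of that group still lay above all control animals. The difference was 0.52 ± 0.14 (log2, SE), or 1.43-fold (limma, adjusted p = 0.0438).

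**Figure D2:**
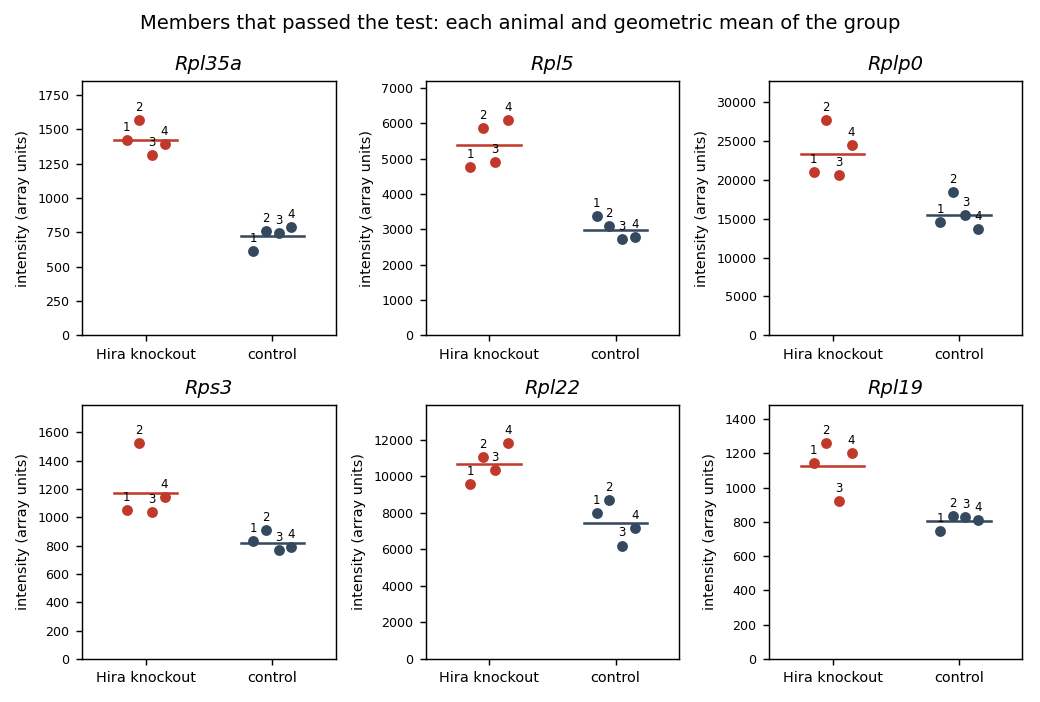
Points show the intensity (array units, linear axis from 0) of the 6 members that passed the test in each animal, numbered within its group, with a line at the geometric mean of the 4 animals. In each panel the 4 Hira knockout animals lie above the 4 control animals, and for Rpl35a the lowest of them reads 1314, against 788 in the highest control animal.

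The calls of Rpl35a and Rpl5 were kept when any single animal was left out, and those of the other 4 were not. Leaving out 1 animal kept the call of Rplp0 in 3 of 8 cases, of Rpl22 in 2, of Rpl19 in 2 and of Rps3 in 1, while every difference remained above 0 (lowest 0.39 for Rps3, without Hira knockout animal 2). The animal labels came in a pair of number series, each with 2 animals per group. All 6 differences were above 0 in both series, 0.30 to 1.13 in the first and 0.36 to 0.99 in the second. With 2 animals per group, 0 of the 6 passed in the first series, and Rpl35a and Rpl5 passed in the second (limma). Of all genes, 0.287% and 1.75% were called higher in these series.

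The annotated starts of the 6 genes that rose are shown because TOP tracts and factor motifs of this family lie there, with Rpl3l, the muscle paralogue whose difference had the opposite sign, beside them. Each sequence runs 5' to 3' on the gene's strand, from 100 bases before the annotated start to 30 bases after it, from RefSeq on GRCm38.p6. The positions are chr16:33056382-33056511 for Rpl35a, chr5:107900428-107900557 for Rpl5, chr5:115559367-115559496 for Rplp0, chr4:152325626-152325755 for Rpl22, chr11:98026610-98026739 for Rpl19 and chr17:24727726-24727855 for Rpl3l, all on the plus strand, and chr7:99483680-99483809 on the minus strand for Rps3. Capitals mark a pyrimidine tract (which is CTCTTT or else CCTTTC or else CTTTCC, overlaps allowed, on the gene's strand), CCGGAA (the core bound by GABP, an ETS factor) or GCCATC (part of the YY1 motif), the last pair on either strand. Where a gene had several annotated starts, the one with the most bases in capitals is printed, so the number of matches in these lines is partly a matter of that choice.
Rpl35a: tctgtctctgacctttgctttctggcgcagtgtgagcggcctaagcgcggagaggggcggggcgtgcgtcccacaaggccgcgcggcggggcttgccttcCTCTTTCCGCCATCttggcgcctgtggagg
Rpl5: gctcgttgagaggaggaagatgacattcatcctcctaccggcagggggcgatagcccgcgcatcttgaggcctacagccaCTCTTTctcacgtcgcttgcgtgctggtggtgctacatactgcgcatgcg
Rplp0: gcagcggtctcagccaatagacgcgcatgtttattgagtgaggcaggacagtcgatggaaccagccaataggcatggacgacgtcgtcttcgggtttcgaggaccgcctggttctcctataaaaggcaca
Rpl22: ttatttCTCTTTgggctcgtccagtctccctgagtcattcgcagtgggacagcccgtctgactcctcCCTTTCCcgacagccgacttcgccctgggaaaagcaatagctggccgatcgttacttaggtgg
Rpl19: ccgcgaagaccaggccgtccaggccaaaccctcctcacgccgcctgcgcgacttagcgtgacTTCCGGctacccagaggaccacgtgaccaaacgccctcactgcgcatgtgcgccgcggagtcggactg
Rps3: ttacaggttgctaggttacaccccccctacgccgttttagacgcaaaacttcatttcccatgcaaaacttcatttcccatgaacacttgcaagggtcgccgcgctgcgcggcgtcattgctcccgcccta
Rpl3l: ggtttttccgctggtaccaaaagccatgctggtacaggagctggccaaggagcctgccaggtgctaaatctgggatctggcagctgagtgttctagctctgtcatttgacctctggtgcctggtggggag
In Rpl35a the tract began at the annotated start itself and GCCATC followed 8 bases on. In Rpl5 a CTCTTT stood 20 bases before the annotated start, and in Rpl22 the nearer tract stood 33 bases before it. The printed stretch of Rpl19 held only CCGGAA on the opposite strand, and those of Rplp0, Rps3 and Rpl3l held none of the motifs. Rpl39l, not printed, also had a difference below 0 (-0.33, log2) without passing. Its stretch held a tract 7 bases before the annotated start, and CCGGAA on both strands. Motifs in these stretches thus did not separate the genes that rose from those below 0.

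Over the full windows of 300 bases (250 before the start and 50 after), 33 of the 38 members matched the RefSeq table, with 42 windows. A pyrimidine tract was in 26 of these windows, 61.9%, against 29% of the 32851 windows of all genes. CCGGAA was in 47.6% of the members' windows, against 14.9% of all, and GCCATC in 23.8% against 14.1%. The windows of mitochondrial ribosomal protein genes held the tract in 28% and CCGGAA in 57.3%. Within the family, the tract was in 8 of 10 windows of the genes that rose and in 18 of 32 windows of the other members, counts that share genes with several starts. CCGGAA was in 2 of 10 windows of the genes that rose and in 18 of 32 of the others. A match gives only letters in a window, and a missing match says nothing about a factor.

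A further set of members lay above control animals without passing the test. In 10 of the 38 genes, 26.3%, all 4 Hira knockout animals were above all 4 control animals, against 7.24% of all genes tested. These were the 6 that rose and Rpl24, Rps25, Rpl30 and Rpl13. In 1 member, Rpl3l, all Hira knockout animals were below all control animals, against 10.2% of all genes.

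Rpl24, part of a bridge between the subunits, read 361, 352, 387 and 461 in Hira knockout animals, against 312, 281, 300 and 312 in control animals. Its difference was 0.37 ± 0.12 (log2, SE; limma, adjusted p = 0.0814). Rps25, a small subunit protein used by viral internal ribosome entry sites, read 661, 811, 691 and 877 in Hira knockout animals, against 570, 576, 636 and 569 in control animals. Its difference was 0.36 ± 0.12 (log2, SE; limma, adjusted p = 0.0944), and control animal 3 stood apart from the rest of its group toward the Hira knockout values. Rpl30, whose yeast counterpart binds its own transcript, read 3135, 3197, 3064 and 3455 in Hira knockout animals, against 2376, 2649, 2771 and 2625 in control animals. Both groups were tight, and the difference was 0.30 ± 0.11 (log2, SE; limma, adjusted p = 0.105).

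Rpl13 read 290 to 339 in Hira knockout animals, against 242 to 279 in control animals, a difference of 0.19 (log2; limma, adjusted p = 0.328). The large subunit protein Rpl37a had a larger difference, 0.41 ± 0.15 (log2, SE; limma, adjusted p = 0.127), but its groups overlapped. It read 2131, 2581, 2223 and 3280 in Hira knockout animals, against 1723, 2238, 1777 and 1858 in control animals. Control animal 2 lay above 2 of the Hira knockout animals there.

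The other members without a call came from both subunits. Rpl27a, Rpl27, Rpl15 and Rpl14 of the large subunit had differences of 0.17 to 0.32 (log2), with overlapping groups. Rpl15 spread widely in both groups, 15707 to 23963 in Hira knockout animals and 12021 to 23129 in control animals. Differences of 0.01 to 0.16 were found for Rpl21, Rpl8, Rpl6, Rpl29, Rpl38, Rpl23, Rpl10a and Rpl4 of the large subunit and for Rps27, Rps13, Rps7 and Rps16 of the small subunit. Rpl4, which reaches into the exit tunnel of the nascent chain, averaged 130896 in Hira knockout muscle and 129635 in control muscle, with a 95% interval of the difference of -0.32 to 0.34 (log2). For Rpl23 the interval was -0.20 to 0.28. These intervals still include changes of the size seen for Rpl13. Rps15a, Rps24, Rps2 and Rps21 of the small subunit had differences of -0.01 to -0.08.

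Rps29 and Rps3a1 could not be measured as the others were. Rps29 was at the floor of the scale, 38.8, on 21 of 24 arrays, and Rps3a1 was under the dim level of 125 on 22 of 24 arrays. Both genes are used by every cell, and each was read on a single row. No fold is given for either. Ribosomal protein genes also have many processed pseudogenes of nearly the same sequence, and the probe sequences were not used here, so signal from such copies cannot be told apart from that of the named gene.

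Among members above the dim level, the differences furthest below 0 belonged to Rpl39l, Rpl37 and Rpl3l, and none of them passed the test. Rpl39l, a paralogue of Rpl39 known from the testis, read 304, 357, 324 and 282 in Hira knockout animals, against 506, 280, 449 and 385 in control animals. The groups overlapped because control animal 2 was the lowest of all 8, and the difference was -0.33 ± 0.18 (log2, SE; limma, adjusted p = 0.282). Rpl37, a zinc-binding protein of the large subunit, read 2778, 2326, 2307 and 2485 in Hira knockout animals, against 2907, 3127, 3109 and 2739 in control animals. Its groups overlapped by 1 animal, and the difference was -0.27 ± 0.11 (log2, SE; limma, adjusted p = 0.176).

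Rpl3l read 199040, 209960, 192720 and 218170 in Hira knockout animals, against 218430, 260940, 222040 and 232140 in control animals. The groups were apart by a small margin, with Hira knockout animal 4 next to control animal 1. The difference was -0.19 ± 0.11 (log2, SE; limma, adjusted p = 0.33). Its other rows on the array gave -0.28 and -0.43 (adjusted p = 0.193 and 0.117 with every row as a feature, limma). All 3 rows thus lay below 0, and in 2 of them the groups did not overlap. With quantile normalization the difference of the first row was -0.0017, and with cyclic loess it was -0.05 (limma, adjusted p = 0.993 and 0.725). The 9 bright genes of muscle fibres were also below 0, with a median of -0.16 (log2).

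The remaining paralogues did not pass either. Rpl7l1, a paralogue of Rpl7, had a difference of 0.08 (log2) on its brighter row and 0.46 on its other row (limma, adjusted p = 0.0634 with every row as a feature). On the second row Hira knockout animals read 2062 to 2885 and control animals 1633 to 1840, with no overlap, while on the first the groups overlapped. Rps27l, a p53-responsive paralogue of Rps27, read 30964, 57821, 27837 and 28723 in Hira knockout animals, against 21252, 34539, 28901 and 27516 in control animals. Animal 2 had the highest value in each group, and the difference was 0.32 ± 0.23 (log2, SE; limma, adjusted p = 0.423). Rps27 itself differed by 0.16 (limma, adjusted p = 0.564). Of 8 listed pairs of a paralogue and its partner, this was the 1 pair with both genes measured. Rps27l minus Rps27 was 5.76 ± 0.56 (log2, SD, n = 4) in Hira knockout animals and 5.59 ± 0.16 in control animals, which holds the unlike response of the probes. The groups differed by 0.17 on this measure (exact two-sided permutation test, p = 0.657, smallest possible 0.0286).

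Where a gene had several rows, these did not always give the same sign. The rows of Rpl21 (0.14 and 0.12), Rpl27a (0.29 and 0.30) and Rpl30 (0.30 and 0.13) were alike in sign. Rps7, a small subunit protein, had differences of 0.10 and -0.19 on its rows. Rps15a had -0.01 on its bright row and 0.48 on a faint row of 251 in Hira knockout muscle and 180 in control muscle. The second row of Rpl37 was under the dim level in both groups, 120 in Hira knockout muscle and 93.7 in control muscle. No row of these 8 genes passed the test over all rows. The genes that rose had a single row each, so their differences have no second probe to set beside them.

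**Figure D3:**
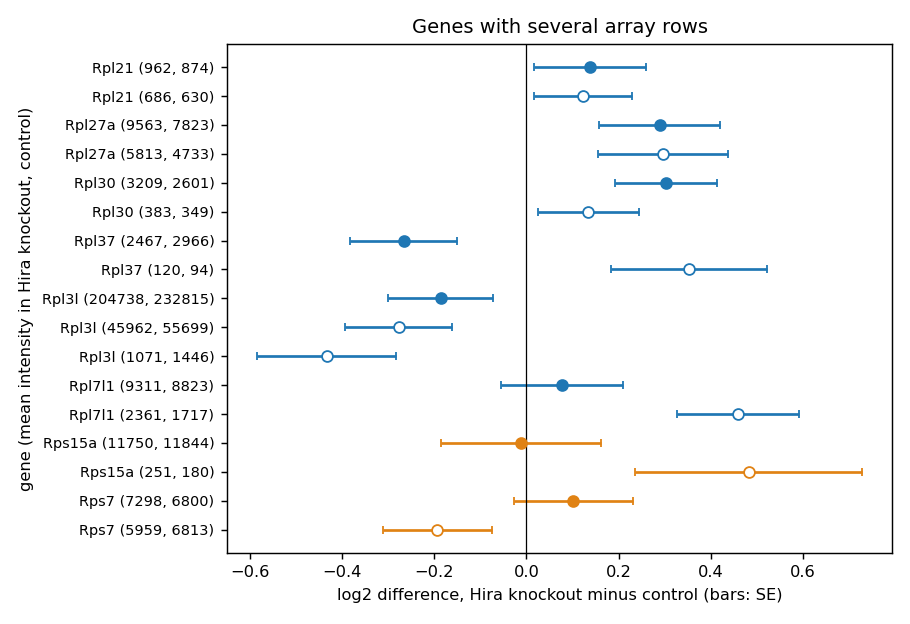
Each point is the log2 difference, Hira knockout minus control, of 1 array row of the 8 member genes with more than 1 row, with its SE (n = 4 animals per group). Filled points are the rows that stood for the gene, open points the others, blue the large and orange the small subunit, and the mean intensities in Hira knockout and control muscle follow each name. The 3 rows of Rpl3l all lie below 0, and those of Rpl37, Rps7 and Rps15a lie on both sides.

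Of the large subunit genes 5 of 25, 20%, rose, and of the small subunit genes 1 of 13, 7.69%. Of all genes tested, 4.28% were called higher, and the small subunit share rests on 1 gene. The median difference was 0.17 (log2) for the large subunit, with 22 of 25 genes above 0, and 0.09 for the small subunit, with 7 of 13 above 0. The small subunit median was 0.0032 without control animal 1. With the paralogues left out these medians were 0.22 for 22 large subunit genes and 0.04 for 12 small subunit genes. Among the 11 small subunit genes above the dim level the median was 0.10. The subunits were not shown to differ by these numbers, since their genes come from the same 8 animals and were read on unequal numbers of probes.

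Per animal, the mean of the 25 large subunit genes, relative to its mean over the 8 animals, was 0.05, 0.19, -0.01 and 0.22 (log2) in Hira knockout animals, against -0.12, -0.03, -0.16 and -0.14 in control animals. All Hira knockout animals lay above all control animals, narrowly so for Hira knockout animal 3 and control animal 2. The mean of the 13 small subunit genes was 0.02, 0.03, -0.02 and 0.15 in Hira knockout animals, against -0.18, -0.04, 0.01 and 0.02 in control animals, so that these groups overlapped. The group difference was 0.23 for the large subunit and 0.09 for the small subunit. The large minus the small subunit mean was 0.07 ± 0.06 (SD, n = 4) in Hira knockout animals and -0.07 ± 0.11 in control animals, with overlapping groups and a difference of 0.13.

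**Figure D4:**
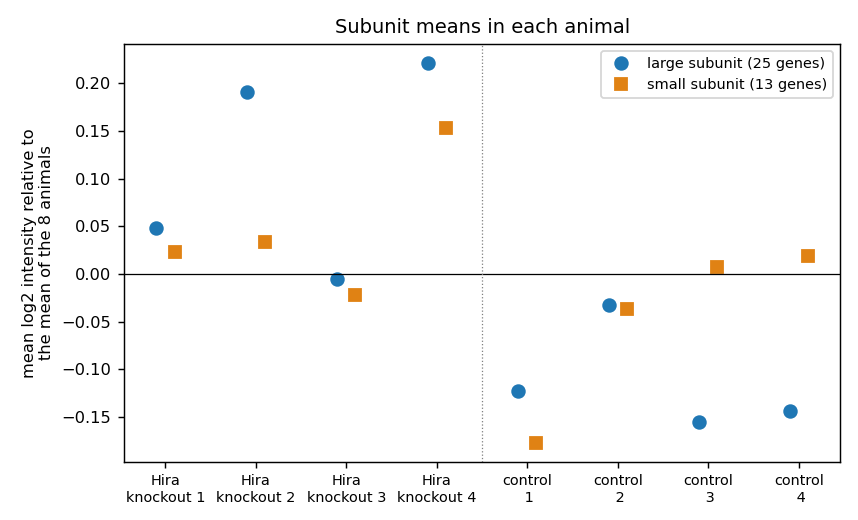
Circles show the mean log2 intensity of the 25 large subunit genes and squares that of the 13 small subunit genes in each animal, relative to the mean of the 8 animals. Large subunit means run from -0.01 to 0.22 in the Hira knockout animals and from -0.16 to -0.03 in the control animals, while small subunit means overlap.

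The proteins of the mitochondrial ribosome, which translates the few messages of the mitochondrial genome, were tested in the same fit. Of 69 measured genes 0 rose and 4 fell (limma), or 5.8%, near the 5.01% of all genes called lower, and the median difference was -0.13 (log2), against -0.07 for all genes. Mrps33 fell by 0.55, Mrpl52 by 0.53, Mrps6 by 0.51 and Mrpl3 by 0.49 on the log2 scale (limma, adjusted p = 0.0193, 0.0428, 0.0131 and 0.0264). At an unadjusted p under 0.05, 3 mitochondrial members were higher and 18 lower, against 9.44% and 14.6% of all genes.

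Translation factors were taken by symbol (Eif or Eef and a digit), which also took in eIF4E-binding proteins such as Eif4ebp3. Of these 52 genes 4 rose, or 7.69%, and 2 fell, or 3.85% (limma), near the 4.28% and 5.01% of all genes. The median difference of the list was 0.08. Eif4ebp3, which holds back the cap-binding protein eIF4E, averaged 10431 in Hira knockout muscle and 3722 in control muscle, a rise of 2.80-fold (limma, adjusted p = 0.000103). Eef2, the factor that moves the ribosome along the message, rose 1.52-fold (limma, adjusted p = 0.0237). Eif2b1 and Eif2b4, subunits of the exchange factor of eIF2, rose 1.41-fold and 1.34-fold (limma, adjusted p = 0.0199 and 0.044). Eif4e2, a relative of eIF4E, fell by 0.67 on the log2 scale (limma, adjusted p = 0.0304), and Eif5b fell on a probe under the dim level in Hira knockout muscle, 99.3 there against 156 in control muscle (limma, adjusted p = 0.0185).

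Among 17 measured of 23 listed genes, other than the members, that are known for a TOP tract, Eef2 was the 1 that rose, and 0 fell (limma). This was 5.88% called higher, near the 4.28% of all genes. Eif4b, a helper of the helicase eIF4A, had a difference of 0.42 (limma, adjusted p = 0.0692), and the list's median was 0.06. At an unadjusted p under 0.05, 2 genes of the list were higher and 1 was lower, against 9.44% and 14.6% of all genes. Of 58 measured of 75 listed genes for ribosome assembly and the nucleolus 0 rose and 2 fell (limma), or 3.45%, against 5.01% of all genes called lower. The 2 that fell were Ltv1, needed to export and finish the small subunit, by 0.51, and Rrp9, a U3 small nucleolar RNA-binding protein, by 0.43 on the log2 scale (limma, adjusted p = 0.0393 and 0.0293). The median of the list was -0.03. At an unadjusted p under 0.05, 2 of its genes were higher and 5 lower, with the same shares over all genes as above.

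None of 15 genes of RNA polymerase I and its factors, which make the precursor of the large ribosomal RNAs, passed the test, and the median was -0.10. The smallest p belonged to Polr1c (0.34; limma, adjusted p = 0.0969) and Taf1a (-0.39; adjusted p = 0.108). None of 17 measured of 21 listed regulators of ribosomal protein genes and their translation passed, with a median of -0.15. Larp1, which binds TOP tracts, had a difference of -0.42 (limma, adjusted p = 0.0527), and the S6 kinase gene Rps6kb2 had 0.29 (adjusted p = 0.116). At an unadjusted p under 0.05, 1 gene of the polymerase list was higher and 3 were lower. In the regulator list 1 was higher and 2 were lower. The shares over all genes were 9.44% higher and 14.6% lower. Of the ribosomal proteins outside the symbol rule, Fau differed by -0.11, and Rpsa read under the dim level in both groups.

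**Figure D5:**
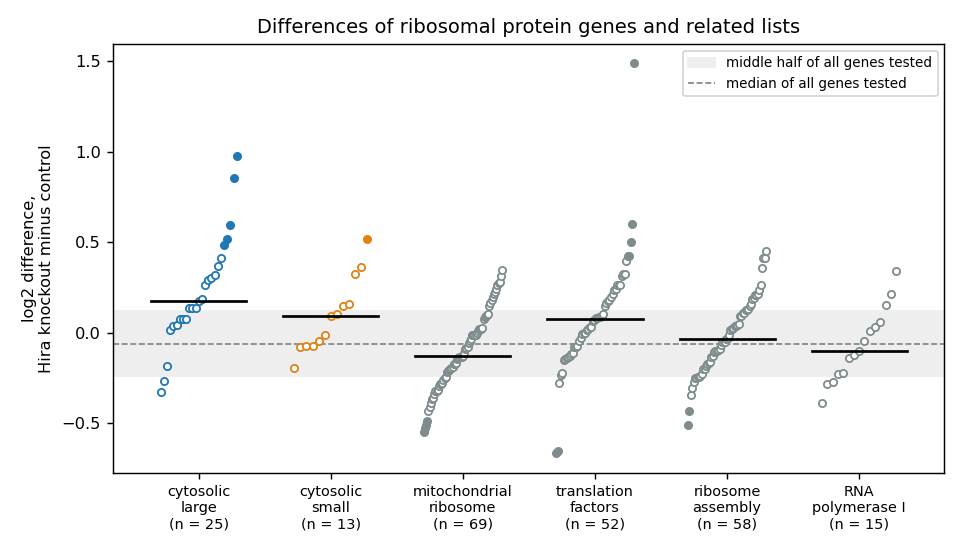
Each point is the log2 difference, Hira knockout minus control, of 1 gene, filled where the adjusted p was under 0.05 (limma), and black lines are medians. The band is the middle 50% of all genes tested, around their median of -0.07. The medians of the large and small cytosolic subunits, 0.17 and 0.09, lie above that median, and that of the mitochondrial ribosome, -0.13, lies below it.

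Markers of other cells in the muscle were read beside these results. All 10 of 10 endothelial markers were below 0 and 3 fell (limma), or 30%, against 5.01% of all genes called lower. Their mean log2 intensity was 12.09 to 12.52 in Hira knockout animals and 12.68 to 13.07 in control animals, without overlap. For 9 of 10 macrophage markers it was 10.86 to 12.08 in Hira knockout animals and 10.59 to 11.64 in control animals, with overlap. Its members were of unlike sign, with Cd163 called lower (-0.93; limma, adjusted p = 0.049) and Ctss at 1.84 without a call. For 6 of 8 satellite cell markers it was 9.85 to 10.08 in Hira knockout animals and 10.12 to 10.21 in control animals. Calcr alone passed the test there (limma), on a probe under the dim level in Hira knockout muscle, while Cdh15 differed by 0.44 and Pax7 by 0.24 without passing. Without Calcr, left out after its values were seen, the other 5 markers averaged 10.62 to 10.92 in Hira knockout animals and 10.67 to 10.76 in control animals, with overlap. For the 2 measured red cell markers it was 8.44 to 9.18 in Hira knockout animals and 9.21 to 9.98 in control animals. Both were below 0, and Alas2 was called lower (-1.04; limma, adjusted p = 0.0189). Fibroblast markers (11.48 to 12.12 in Hira knockout animals, 11.73 to 11.99 in control animals) and lymphocyte markers (8.49 to 8.69 in Hira knockout animals, 8.51 to 8.81 in control animals) overlapped. The lymphocyte markers were of unlike sign, 4 above and 4 below 0. Cd3e was called higher (0.60; limma, adjusted p = 0.00629) and Cd79b lower (-0.48; limma, adjusted p = 0.0389). No marker had a group mean at the floor of 38.8, but Col1a1 and Ms4a1 were under the dim level in both groups. Cd3d was under it in control muscle (101), and Slc4a1, a red cell marker, in Hira knockout muscle (114). The part of these cells in the ribosomal protein differences was not tested.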

How the data were processed

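Tibialis anterior RNA of 8 mice was measured on 24 arrays. The authors deposited linear probe intensity values, 1 per array and row, with a common median of 626 and 0% to 5.37% of values of an array at or below 0. No source used here names the scanner, the background correction or the scaling. The label field and the labelling protocol name different dyes (Cy3 and Cy5), so the dye is not settled.

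Intensities below 38.8, the 5th percentile over all arrays, were raised to that floor before taking log2, and each animal's 3 hybridisations were averaged. Animal numbers follow the order of deposit and pair nothing across groups. Old array symbols were updated through a RefSeq gene table (GRCm38.p6), and Rps3a1 is annotated RPS3A on the array. The row with the highest mean stood for a gene. Testing used lmFit and eBayes of limma 3.58.1 (R 4.3.3), with Benjamini-Hochberg adjustment over all 17742 genes at 0.05. A group mean at or under 125, the highest 5th percentile of any array, is called dim. The p-values measure the spread between these animals.

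Members, lists and tests were chosen with earlier results of these data known. Named are members that passed, the 4 largest differences in each direction, the stalk and 5S proteins, paralogues, and the genes of lowest p in each other list (at most 4, or 2 if none passed). All translation factors that passed, the members with groups apart, Rpl15, Rpl4, Rpl23, and those with rows of unlike sign were named after their values were seen. The fit was tested on simulated data. The alternatives were other normalizations, floors, row rules, variance models and blocks, and leaving out animals or hybridisations.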

Additional observations from a re-analysis of the deposited data

Results flagged for a closer look

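Of 84 sets of values checked (the ribosomal protein genes and their subunit means in each group of 4 animals), 8 held 1 animal far from the other 3 of its group, and chance flags about 1 set in 20. Hira knockout animal 2 was the distant animal in 3 of them. Its log2 intensity was 15.82 for Rps27l, where the rest of its group lay at 14.76 to 14.92, and 17.07 for Rpl8, against 16.34 to 16.39, both above. For Rps2 it was 11.08, against 11.85 to 12.0, and so below. Hira knockout animal 4 was above its group for Rpl13 (8.403, against 8.178 to 8.203) and for Rpl7l1 (13.31, against 13.14 to 13.15). It was also the 1 animal of its group off the floor for Rps29 (5.377, against 5.277). There the other 3 were tied at the floor by construction, so that any value off it would stand apart, and this case carries no information. Control animal 3 was above its group for Rps25 (9.313, against 9.151 to 9.169), and control animal 1 below it for Rps15a (13.38, against 13.57 to 13.59). None of the 6 genes that rose held such an animal.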

How the results depend on the processing

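The number of ribosomal protein genes called higher was 6, and 0 to 10 over 26 alternatives, while 0 were called lower in all 26. The share of all genes called higher moved as well, from 4.28% in the main fit to 0.287% to 7.52% over the alternatives. With all arrays and the animal as a random block 10 were called, and 10 also with the hybridisation number added as a replicate block. Of all genes, 7.52% and 7.29% were called higher there. Both fits added Rpl24, Rps25, Rpl30 and Rpl37a. The hybridisation numbers gave no clear pairing of the arrays. Deviations of the same number correlated at 0.068 on average (-0.392 to 0.568), against -0.0337 for different numbers. Of 24 arrays, 9 correlated best with their own number. Whether some arrays shared a run was not tested. With the median of the 3 hybridisations 2 were called (Rpl35a and Rpl5), with the first series of animal labels alone 0, and with the second alone 2. The shares of all genes called higher in these fits were 3.92%, 0.287% and 1.75%. Leaving out 1 animal or hybridisation number gave 2 to 6, with 2 (Rpl35a and Rpl5) without Hira knockout animal 2 or 4 or control animal 1, 3 or 4, and 3 without hybridisation 3. Of all genes, 2.94% to 4.1% were called higher when 1 of these was left out. Quantile normalization and cyclic loess gave 8, adding Rpl24 and Rps25, and every row as a feature gave 5, without Rps3. The shares called higher were 6.99% and 7.38% of all genes and 3.23% of all rows. The median difference was 0.09 to 0.21 (log2) for all members and 0.13 to 0.26 for the large subunit. That of the small subunit was 0.0032 to 0.13 when an animal or hybridisation was left out, the lowest without control animal 1. The large minus small subunit difference lay at 0.06 to 0.21, and that of Rps27l minus Rps27 at -0.20 to 0.53 without passing. The cause of these shifts was not tested, and the fits that leave animals out also hold fewer of them. In 18 of 38 members single hybridisations of an animal varied more than the animal means did. Each animal mean was taken over 3 hybridisations, so these measures are not on the same footing. Under cyclic loess the median of all genes was -0.0026 and that of the members 0.16.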
